A study of Mus musculus with 9 samples.

Results

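The normal red cell precursor of the mouse fetal liver was described from the 3 wild type samples of a series of 9 arrays. The members were all samples labelled wild type, and no measured value was used to choose them. Per the labels, livers of E14.5 embryos were taken from crosses of Th3/+ parents and dissociated. Cells that carried CD71 and Ter119 and had a high forward scatter, that is, large cells, were sorted by flow cytometry. The Th3 allele, a model of beta-thalassemia, is a deletion of both adult genes for beta-globin, here on a 129SV background crossed to C57BL/6 for 9 generations. The wild type embryos carried no Th3 allele, the 3 Th3/+ samples carried 1 and the 3 Th3/Th3 samples carried the allele on both chromosomes, with no other treatment in any group. The labels call the 3 samples of each genotype biological replicates and do not say whether each was 1 embryo or a pool, so the spread given here is that between samples.

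CD71 is the transferrin receptor and Ter119 is a surface antigen of red cells. Cells with both markers and a large size are the earlier of the terminal erythroblasts, which still divide while they fill with hemoglobin. Such cells make heme and globin in large amounts, assemble the membrane skeleton of the red cell, and later clear their mitochondria and expel the nucleus. For many of these tasks the genome holds several related genes, and a red cell precursor is known to use a particular one, as with the erythroid form of the first enzyme of heme synthesis. The description therefore follows gene families and states, member by member, which were measured above the background of the array.

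The deposited values are log2 signals, 1 per probe set and array, and 21789 probe sets with a single gene symbol named 19938 genes. Probe sets differ in how strongly they respond to the same amount of transcript. The order of genes given here is therefore an order of array signal and not of transcript number, and a low signal does not show that a gene was silent. The background was read from genes with no known use in red cells. For each array the lower level was the 95th percentile of 1243 probe sets of olfactory, vomeronasal and taste receptors, which lay between 4.96 and 5.03 on the 3 arrays. The upper level was the 95th percentile of 44 probe sets of keratin-associated proteins, which are proteins of hair, and lay between 6.77 and 6.99. A gene above both levels on all 3 arrays is called clearly above background, a gene above only the lower level is called weak, and the rest are called near background.

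By these rules 9997 of the 19938 genes (50.1%) exceeded the lower level on all 3 wild type arrays, and 4140 (20.8%) exceeded both. Another 5857 were weak, 8864 exceeded the lower level on none of the 3 arrays, and 1077 on 1 or 2 of them. The median over all genes was 5.10, close to the lower level, while the sensory receptors had a median of 3.40. At the other end, 2713 genes had a mean of 8 or more, 912 a mean of 10 or more and 170 a mean of 12 or more.

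**Figure D1:**
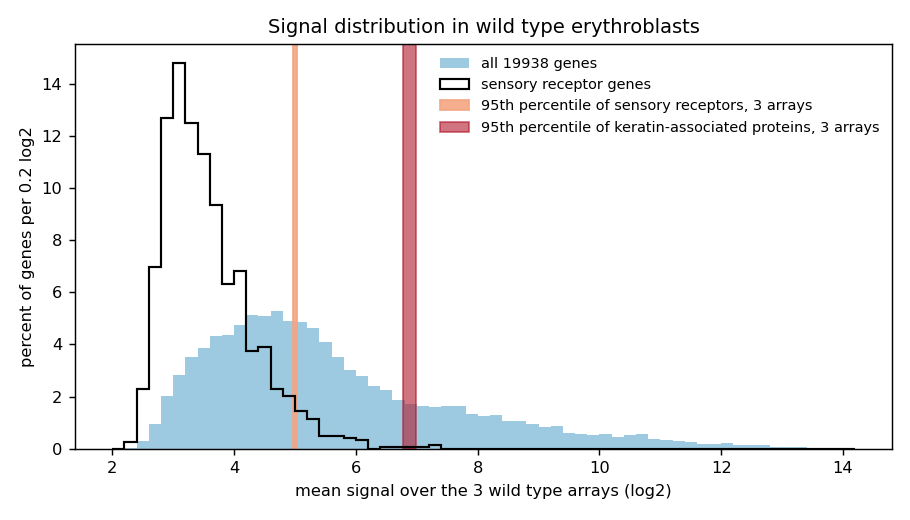
Histogram of the mean log2 signal over the 3 wild type arrays for 19938 genes (filled) and for the sensory receptor genes (outline), as percent of genes per bin. The shaded bands mark the range over the 3 arrays of the lower level (4.96 to 5.03) and of the upper level (6.77 to 6.99), and the filled histogram reaches far to the right of both.

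The identity of the sorted cells was checked with markers. All 10 erythroblast markers with a probe set of their own were clearly above background. Where 3 values are given, here and below, they are replicates 1, 2 and 3 in that order. The anion exchanger gene Slc4a1 gave 12.94, 12.89 and 13.14 (mean 12.99 ± 0.13 SD, n = 3), and Alas2, the erythroid ALA synthase, gave 12.58, 12.69 and 12.77 (12.68 ± 0.10). The gene of CD71, Tfrc, whose product the gate selected, gave 11.92, 12.23 and 12.20 (12.12 ± 0.17), and the erythroid transcription factor gene Klf1 gave 9.77, 9.54 and 9.65 (9.65 ± 0.11). On every array each of these signals lay far above the upper level, and the arrays differed from each other by fractions of a log2 unit. The other markers were Trim10 (12.37 ± 0.15), Hemgn (12.25 ± 0.10), Tspo2 (11.56 ± 0.04), Epb42 (11.45 ± 0.17), Gata1 (9.94 ± 0.14) and Epor (9.12 ± 0.11, SD, n = 3 for each).

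The start regions of these markers were searched for the letters that GATA factors recognise, AGATAA or TGATAA on either strand, in the 250 bases before each start. Of the 10 markers 9 had an entry in the RefSeq promoter table (GRCm38.p6), with 10 start regions in all. Among these, 6 held a match, as did 5452 of all 32851 promoters of that table (16.6%). The share was 9.08% over the promoters of genes clearly above background and 18.3% over those of genes near background. The regions of Alas2, Klf1, Epor and Trim10 are shown as examples, chosen from the 6 with a match; the match is in capitals, and each is printed 5′ to 3′ on the strand of its gene.
Alas2, chrX:150547167-150547416, plus strand: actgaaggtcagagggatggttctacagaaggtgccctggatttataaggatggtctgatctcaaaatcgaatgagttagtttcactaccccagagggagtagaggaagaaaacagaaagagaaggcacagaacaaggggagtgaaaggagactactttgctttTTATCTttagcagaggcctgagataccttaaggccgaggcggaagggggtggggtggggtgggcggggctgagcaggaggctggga
Klf1, chr8:84901732-84901981, plus strand: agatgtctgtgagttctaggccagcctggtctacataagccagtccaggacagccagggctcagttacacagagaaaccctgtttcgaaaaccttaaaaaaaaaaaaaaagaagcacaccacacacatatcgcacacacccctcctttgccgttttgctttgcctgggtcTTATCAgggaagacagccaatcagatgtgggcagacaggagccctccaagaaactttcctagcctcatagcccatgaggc
Epor, chr9:21963577-21963826, minus strand: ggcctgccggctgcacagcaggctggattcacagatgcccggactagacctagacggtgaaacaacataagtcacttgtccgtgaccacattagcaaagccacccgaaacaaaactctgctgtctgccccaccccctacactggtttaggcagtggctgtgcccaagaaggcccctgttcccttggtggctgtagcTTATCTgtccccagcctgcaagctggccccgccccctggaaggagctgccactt
Trim10, chr17:36869324-36869573, plus strand: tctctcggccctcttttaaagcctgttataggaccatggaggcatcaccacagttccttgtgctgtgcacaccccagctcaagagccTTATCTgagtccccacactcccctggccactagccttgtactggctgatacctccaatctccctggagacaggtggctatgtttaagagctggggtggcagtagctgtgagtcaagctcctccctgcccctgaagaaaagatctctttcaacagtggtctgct
The match began 86 bases before the start in Alas2, 80 in Klf1, 54 in Epor and 163 in Trim10. Hemgn and Epb42 also held 1 match each. The windows of Tfrc, Gata1 and Tspo2 held none, which says only that these letters are not in these windows.

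Markers of other cells of the fetal liver were mostly weak or near background. Of 8 measured markers of early progenitors, 0 were clearly above background: the stem cell factor receptor gene Kit gave 4.74, 4.72 and 4.83, Cd34 3.85, 3.89 and 3.77, and Gata2 4.77, 4.94 and 4.66. Only Flt3 (5.08 ± 0.06) was weak. Among 17 macrophage markers, Tyrobp (7.85 ± 0.27) was clearly above background and 8 were weak. By mean, the weak ones were Ctss (6.62), Cd68 (6.26), C1qc (6.14), Marco (6.12), C1qb (6.01), Timd4 (5.52), Fcer1g (5.52) and C1qa (5.05). The rest were near background. Among these were Adgre1 (4.53 ± 0.07), Csf1r (4.34 ± 0.08), Cd163 (3.21 ± 0.05) and Mrc1 (3.72 on each array). Macrophages form the core of the erythroblastic islands of this tissue.

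Of 13 hepatoblast markers, 3 were clearly above background: the apolipoprotein gene Apoa2 gave 9.23, 9.21 and 9.93, albumin (Alb) 7.53, 8.25 and 8.03, and Apoa1 7.48, 7.60 and 8.13. The mean over the hepatoblast list was 6.27, 6.43 and 6.50, lowest on replicate 1. Of 8 megakaryocyte and platelet markers, all exceeded the lower level and 3 exceeded both: Pf4 (8.35 ± 0.49), Ppbp (7.71 ± 0.46) and Gp9 (7.37 ± 0.23), with Pf4 and Ppbp highest on replicate 3. The granulocyte and mast cell list (12 genes), the lymphoid list (10), the endothelial list (9) and the stromal list (10) had 0 members clearly above background. How much of the weak signal of other genes came from such cells was not tested, and in sorted bulk RNA fewer cells of a type and less RNA per cell cannot be told apart.

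**Figure D2:**
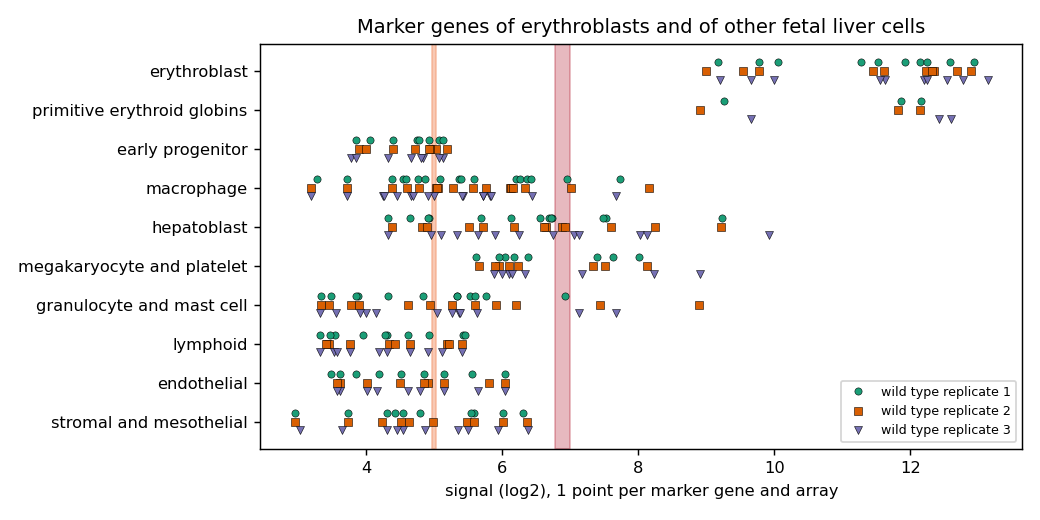
Log2 signal of marker genes of erythroblasts and of other cell types, 1 point per gene and wild type array, with the lower and upper background levels as shaded bands. All erythroblast markers lie to the right of the upper level, from 9.12 to 12.99 on average, and most markers of other cells lie to its left.

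The 3 wild type arrays were close to each other, with rank correlations between 0.991 and 0.992 over all genes. Among genes above the lower level the median SD was 0.13 and the 90th percentile of the SD 0.29, and 80 of the 9997 (0.80%) had a range over 1. Sex-linked genes had the largest ranges. The X-inactivation RNA gene Xist gave 9.63, 3.90 and 4.14, and the Y-linked gene Eif2s3y 3.13, 8.15 and 7.99. Replicate 1 was high in the first and low in the second, and it was low in the Y-linked gene Uty too (3.23, 5.93 and 6.02). Other differences of replicate 1 from the rest cannot be told apart from sex. By genotype, the mean of Xist was 5.89 in wild type, 5.75 in Th3/+ and 7.49 in Th3/Th3. That of Eif2s3y was 6.43, 6.33 and 4.56 in the same order. The part of sex in the genotype differences was not tested. Some spreads are understated: 3770 genes have exactly equal deposited values on at least 2 of the 3 arrays, among them 179 of the genes clearly above background.

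Among the 20 named genes with the largest ranges were the small nucleolar RNA genes Snora23 (6.01, 8.11 and 5.15), Snord61 (7.14, 5.09 and 6.33), Snord52 and Snora44, and the microRNA genes Mir103-2, Mir6516 and Mir130a. Rpph1, the RNA of ribonuclease P, gave 13.04, 12.86 and 10.88 and was low on replicate 3. Rnu3a, a U3 small nucleolar RNA gene, followed the same pattern with 7.89, 8.60 and 6.63. The granulocyte genes S100a8 (5.33, 7.43 and 5.38) and S100a9 (6.92, 8.89 and 7.68) and Stfa3 (4.09, 5.91 and 3.91) were highest on replicate 2, and so was the leukocyte surface gene Cd48 (3.22, 5.00 and 3.66). Mpo, a granule enzyme of the myeloid line, was highest on replicate 3 (5.53, 6.20 and 7.13), and Ang6, an angiogenin gene, on replicate 1 (7.39, 6.24 and 5.82). The tetraspanin gene Cd63 was low on replicate 1 (4.28, 6.78 and 6.75), and the protease gene Casp8 was low on replicate 3 (6.80, 6.59 and 4.96). Among genes of the families described below, the mechanosensitive channel gene Piezo1 (8.57, 7.05 and 7.87) and the proliferation factor gene Myc (6.53, 6.59 and 5.32) also had ranges over 1.

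Of the 40 genes with the highest means, 22 were cytosolic ribosomal proteins, and 37 of the 100 highest were. The rest of the 40 included Gpx1, a glutathione peroxidase that removes hydrogen peroxide (13.66, 13.73 and 13.82; mean 13.74 ± 0.08), and Prdx2, the peroxiredoxin of red cells (13.29, 13.35 and 13.42; 13.35 ± 0.06). Sod1, the cytosolic superoxide dismutase, gave 13.21 ± 0.10, and Mt2, a metallothionein that binds zinc and copper, 13.02 ± 0.10. The mitochondrial genes among the 40 were Atpif1, the inhibitor of the ATP synthase (13.52 ± 0.05), and the cytochrome oxidase subunits Cox6c (13.31 ± 0.06) and Cox6b1 (12.91 ± 0.02). The arrays differed little in these genes, and each signal was near the top of the scale, where the highest probe set of replicate 1 outside the control block read 14.08.

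Others of the 40 were as follows. Pabpc1, the poly(A)-binding protein, gave 13.27, 13.32 and 13.38, Eef1a1, an elongation factor, 13.02 ± 0.09, and Tpt1, a translationally controlled protein, 12.97 ± 0.07. The histone gene H4c4 gave 13.43 ± 0.08 and the variant histone gene H2az1 13.17 ± 0.04. Fth1, the ferritin heavy chain that stores iron, gave 13.19 ± 0.07, and Slc4a1 completed the set of red cell genes. The RNA genes Rn7sk (13.52 ± 0.05) and Gas5 (13.02 ± 0.09) also ranked here, as did Taf1d (13.08 ± 0.07), a protein-coding host of small nucleolar RNAs whose 9 probe sets ranged from 4.30 to 13.08. The gene listed first, Baiap2l1 (14.01 ± 0.01), is not taken as such: its bright probe set also lists ribosomal RNA transcripts, and its dimmest probe set read 4.43.

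The adult globin genes have no probe set of their own. Adult beta-globin (Hbb-bt, Hbb-bs, Hbb-b2, Hbb-b1) is read by 2 shared probe sets, which gave 13.81, 13.86 and 13.84, and 13.76, 13.81 and 13.82. The pair shared by Hba-a2 and Hba-a1, the adult alpha-globins, gave 13.54, 13.59 and 13.49, and 13.51, 13.56 and 13.43. All 4 probe sets were near the top of the scale. Below the 40 highest, and still among the 100, were Cd24a (12.90 ± 0.07), Slc25a37 (12.75 ± 0.04), Urod (12.73 ± 0.15), Xpo7 (12.70 ± 0.13), Slc2a1 (12.64 ± 0.27), Cldn13 (12.59 ± 0.13), Bnip3l (12.58 ± 0.19), Glrx5 (12.43 ± 0.20) and Car2 (12.42 ± 0.10), chosen for naming after their values were seen.

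Groups of genes sharing a symbol stem differed widely in the share of members clearly above background. Of 60 cytosolic ribosomal protein genes, 55 were clearly above background (91.7%), with a median of 12.59 and Rplp0, Rps29, Rpsa, Rps20 and Rps12 highest. All 34 genes counted by symbol as respiratory complex I were clearly above background (median 10.39). The highest were Ndufa4 (12.14, 12.30 and 12.17), Ndufs6, Ndufb7, Ndufb9 and Ndufa1. A symbol alone does not place a protein in that complex, Ndufa4 included. Of 39 proteasome subunits, 34 were clearly above background (87.2%, median 10.26), with Psmb4 (12.12 ± 0.23), Psmc5, Psmb6, Psma7 and Psma6 highest. Against the 20.8% of all genes, these shares describe groups in which nearly every member was read well above the upper level.

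Other machines were expressed in large part. Of 77 mitochondrial ribosomal proteins, 61 were clearly above background (79.2%), at a median of 7.89. Of 49 genes counted by symbol as translation initiation factors, among them the kinase gene Eif2ak1, 36 were (73.5%). Of 44 histone genes, 30 were (68.2%). The replication proteins of the MCM and ORC groups, which license and open the origins, had 12 of 15 clearly above background (80.0%), among them Orc6 (10.54 ± 0.27), Mcm6 (10.40 ± 0.09), Mcm2 (10.11 ± 0.26), Mcm7 (9.56 ± 0.21) and Mcm3 (9.32 ± 0.24). Of the kinesins, motor proteins of the microtubules, 14 of 37 were (37.8%), and the 5 highest were Kif2a (11.26 ± 0.21), Kif11 (10.79 ± 0.20), Kif14 (10.23 ± 0.36), Kif23 (10.19 ± 0.15) and Kif4 (10.08 ± 0.18), most of which serve the mitotic spindle or cell division.

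Several large groups held a few high members among many near background. Of 23 claudins, proteins of the tight junctions of epithelia, 1 was clearly above background, Cldn13, with 12.48, 12.56 and 12.74, and 7 were weak. Of 92 potassium channel genes, 1 was, Kcnn4 (9.75, 9.36 and 10.03), the calcium-activated channel of red cells. Of 48 serpins, 1 was, Serpinb6b (8.68 ± 0.21), and of 19 tetraspanins 3 were: Tspan8 (12.19 ± 0.16), Tspan33 (10.90 ± 0.25) and Tspan32 (8.66 ± 0.28). Solute carriers outside the mitochondria had 35 of 277 (12.6%), with Slc4a1, Slc2a1, the amino acid carrier genes Slc43a1 (12.01 ± 0.09) and Slc7a5 (11.09 ± 0.07), and Slc43a3 (11.59 ± 0.07) highest. Mitochondrial carriers had 9 of 46 (19.6%), headed by the iron importer gene Slc25a37, Slc25a51 (11.49 ± 0.07), Slc25a5, Slc25a39 (10.92 ± 0.16) and Slc25a38. Of 317 genes named as Zfp zinc fingers 36 were (11.4%), a share below that of all genes, with Zfp207 (10.43 ± 0.17) highest.

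Groups of other tissues had 0 members clearly above background: 37 Hox genes, 48 keratins, 44 collagens, 85 cytochromes P450, 32 interleukins, 33 chemokines, and 57 cadherins and protocadherins. Many of them still passed the lower level, 34 of the 44 collagens (77.3%) among them, with medians from 3.74 (cytochromes P450) to 5.49 (collagens). The highest were Hoxa4 (6.81 ± 0.07), Krt8 (6.53 ± 0.25), Col9a2 (6.85 ± 0.03), Cyp2d40 (5.96 ± 0.08), Il27 (6.31 ± 0.02), Ccl25 (6.46 ± 0.33) and Cdh24 (6.29 ± 0.04). Weak signals are therefore given below by name and not counted as use of a gene.

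Among 291 microRNA genes 19 were clearly above background (6.53%). The probe sets are named for the gene and need not read the mature RNA. Mir451a, the microRNA known for its abundance in red cells, gave 8.34, 8.34 and 8.33. Its neighbour Mir144 gave 4.05, 4.02 and 5.26, near background on 2 of the 3 arrays, and Mir15a gave 7.07, 8.22 and 8.13. Mir144 and Mir15a were chosen for naming after their values were seen. The highest of the group were Mir692-1 (10.12 ± 0.11), Mir598 (9.37 ± 0.02), Mir346 (8.62 ± 0.09) and Mir328 (8.45 ± 0.13). The mature forms of the neighbours Mir451a and Mir144 are shown since they differ in signal on these arrays; capitals mark the seed, bases 2 to 8, and the sequences and positions are those of RefSeq (GRCm38.p6).
mmu-miR-451a, chr11:78073186-78073207, plus strand: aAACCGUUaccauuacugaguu
mmu-miR-144-5p, chr11:78073010-78073032, plus strand: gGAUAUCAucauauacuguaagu
mmu-miR-144-3p, chr11:78073047-78073066, plus strand: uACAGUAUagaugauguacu
The seeds of the 3 mature forms differ from each other.

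To ask which relative of a gene the cells used, 134 families of 586 genes in 15 processes were examined. Of these genes 542 had a probe set of their own, 396 exceeded the lower level and 237 exceeded both, against 50.1% and 20.8% of all genes. The families were chosen for processes of red cells, so the higher share describes the choice as much as the cells. Of the 129 families with at least 2 such genes, 47 had a single member clearly above background, 52 had several but not all, 14 had all and 16 had 0. At the lower level alone 19 families had a single member, 58 several but not all, 51 all and 1 none. The share of members clearly above background was highest for protein turnover (22 of 33), heme and iron (24 of 37) and antioxidants (16 of 25), and lowest for carbonic anhydrases (2 of 16) and signalling (7 of 38).

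Heme synthesis was read mainly from the genes known from red cells. The ALA synthases carry out its first step, and Alas2 was clearly above background while the housekeeping form Alas1 was weak, with 5.08, 5.21 and 5.28. All 6 later enzymes with a probe set of their own were clearly above background: Urod (12.64, 12.65 and 12.90), Alad (12.32 ± 0.19), Cpox (12.32 ± 0.07), Fech, which inserts the iron (10.98 ± 0.09), Ppox (10.79 ± 0.17) and Uros (10.20 ± 0.07). Iron enters the mitochondrion through mitoferrins, of which Slc25a37 gave 12.72, 12.74 and 12.79 and Slc25a28 6.52, 6.66 and 6.52, that is, below the upper level on all 3 arrays. The glycine carrier gene Slc25a38 was clearly above background (9.20 ± 0.12).

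Iron uptake had the same pattern. Tfrc was clearly above background and the other transferrin receptor gene, Tfr2, gave 6.90, 6.61 and 6.80 and was weak. Of the STEAP enzymes that reduce iron in endosomes, Steap3 gave 7.56, 7.45 and 7.48, and Steap1, Steap2 and Steap4 lay between 3.40 and 3.86. Slc11a2, which carries iron out of the endosome, gave 9.05 ± 0.36. Storage used Fth1 and Ftl1 (12.57 ± 0.11), with the mitochondrial ferritin gene Ftmt at 4.96 ± 0.07. Of the iron regulatory proteins Ireb2 (7.38 ± 0.34) was clearly above background and Aco1 (5.30 ± 0.14) weak, and of the iron chaperones Pcbp2 (10.87 ± 0.06) and Pcbp1 (9.02 ± 0.08) were, with Pcbp3 and Pcbp4 weak at 5.63 each.

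Export and breakdown of heme were represented as well. Blvrb, a biliverdin reductase of red cells, gave 12.41, 12.30 and 12.43 and its relative Blvra 8.57 ± 0.06. Both heme oxygenases passed the upper level narrowly, Hmox2 at 7.23 ± 0.22 and Hmox1 at 7.05 ± 0.30. The heme exporter gene Flvcr1 was weak (5.63 ± 0.14) and Flvcr2 near background (4.38 ± 0.03). Among the porphyrin and mitochondrial ABC transporters, Abcg2 (11.46 ± 0.13), Abcb10 (9.59 ± 0.23) and Abcb6 (8.88 ± 0.40) were clearly above background, and Abcb8 (5.03 ± 0.00) was weak.

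Embryonic globins were still measured at this stage. Hbb-bh1 gave 12.16, 12.14 and 12.60 and Hbb-y 11.86, 11.82 and 12.41, both beta-like genes of the yolk sac lineage. Their alpha-like counterpart Hba-x gave 9.26, 8.91 and 9.66. All 3 were highest on replicate 3. Primitive red cells of the yolk sac circulate at this age, and whether the signal came from them was not tested. Whether the probe sets of Hbb-bh1 and Hbb-y also bind transcripts of adult beta-globin was not tested either. The theta-globin genes Hbq1b (11.67, 11.92 and 11.86) and Hbq1a (9.18, 9.12 and 9.11) were clearly above background too. Hbb-bh2 was near background (4.52 ± 0.09), as was neuroglobin (Ngb, 4.74 ± 0.06), and myoglobin (Mb, 5.76 ± 0.02) and cytoglobin (Cygb, 5.13 ± 0.03) were weak.

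In several families of the membrane skeleton the member known from red cells was the one clearly above background. Among beta spectrins, Sptb gave 11.48, 11.32 and 11.74, and Sptbn1, Sptbn4 and Sptbn5 lay between 4.55 and 4.78, near background. Among ankyrins, which tie spectrin to the membrane, Ank1 gave 11.10, 10.94 and 11.32 while Ank2 gave 4.78 ± 0.04 and Ank3 3.96 on each array. Of the anion exchangers, Slc4a1 was clearly above background, Slc4a3 weak (5.84 ± 0.14) and Slc4a2 near background (4.91 ± 0.02).

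The proteins of the junctions between spectrin and actin were less exclusive. Tmod1, which caps the short actin filaments, gave 11.05, 11.05 and 11.10, and Tmod3 was also clearly above background with 7.53, 7.98 and 7.98, whereas Tmod2 (4.00 ± 0.06) and Tmod4 (4.02 ± 0.10) were near background. Both Add1 (10.65 ± 0.23) and Add2 (9.44 ± 0.16) were clearly above background, with Add3 (6.66 ± 0.18) weak. Tpm3 (10.94 ± 0.08) and Tpm1 (9.78 ± 0.03) were the tropomyosins above both levels, and Tpm4 (6.70 ± 0.31) and Tpm2 (5.98 ± 0.14) were weak. Actb gave 12.81 ± 0.13, and the muscle actin genes were weak (Acta1, Actc1) or near background (Acta2, Actg2). Among the MPP scaffolds, Mpp1 (p55; 11.15 ± 0.23), Mpp5 (7.59 ± 0.14) and Mpp6 (7.45 ± 0.11) were clearly above background, and Mpp2 (7.18 ± 0.39) was not, since replicate 1 lay below the upper level. Dmtn (11.21 ± 0.18), Stom (11.72 ± 0.05) and Stoml2 (8.68 ± 0.10) were clearly above background, and 0 of the 6 protein 4.1 relatives measured were.

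Surface antigens and channels of red cells formed the rest of the membrane set. Rhd gave 12.16, 12.25 and 12.55 and its partner Rhag 11.17, 11.50 and 11.31, and the kidney relatives Rhbg (4.45 ± 0.01) and Rhcg (4.86 ± 0.03) were near background. Kel (12.06 ± 0.10) and Xk (8.44 ± 0.13), which form the Kell complex, and Gypc (9.76 ± 0.12) were clearly above background. Of 11 aquaporins, Aqp9 (8.60, 8.82 and 9.14) and Aqp1 (8.57, 8.36 and 8.04) were, 4 were weak (Aqp2, Aqp3, Aqp5 and Aqp12) and 5 near background. Piezo1 passed with the wide spread given above, and Piezo2 did not (4.71 ± 0.12). Of the equilibrative nucleoside transporters Slc29a1 passed (7.85 ± 0.21), and of the calcium-activated potassium channels Kcnn4, with the values given above.

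Carbonic anhydrases, which interconvert carbon dioxide and bicarbonate, had 16 members with a probe set of their own. Car2 gave 12.31, 12.51 and 12.45 and Car1 9.95, 10.61 and 9.54. These 2 were clearly above background, Car11, Car13 and Car15 were weak between 5.33 and 5.46, and the other 11 were near background. Car1 varied more between the arrays (SD 0.54) than Car2 (SD 0.10), with replicate 2 highest.

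**Figure D3:**
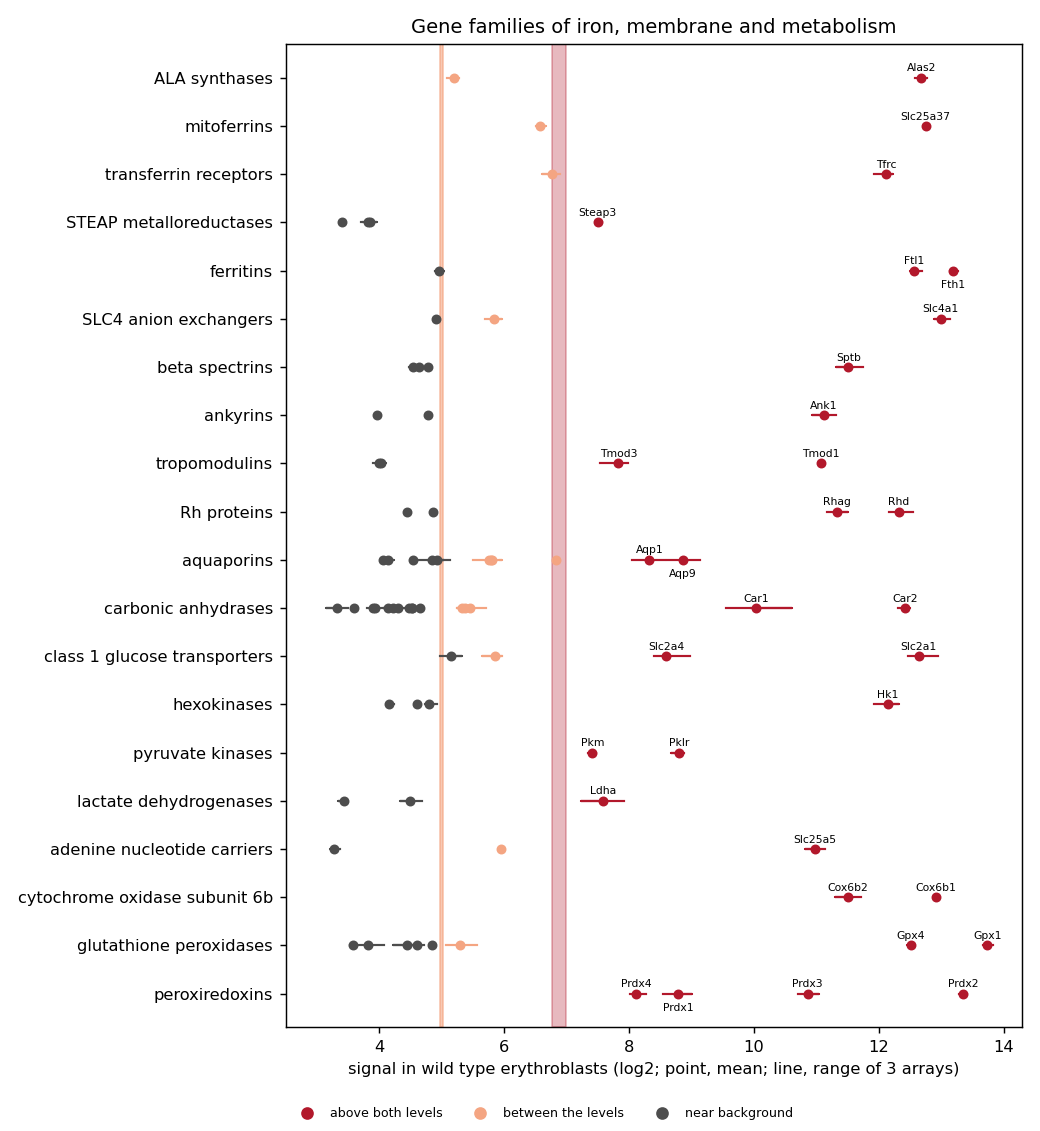
Log2 signal of each family member with its own probe set in wild type erythroblasts, 1 row per family, with the mean as a point and the range of the 3 arrays as a line. Colours give the class, names are printed for members above both background levels (shaded bands), and in rows such as the ankyrins and hexokinases a single point lies to the right.

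Glycolysis is the energy source of the mature red cell. Of the glucose transporters, Slc2a1 gave 12.46, 12.50 and 12.95, and Slc2a4, the insulin-regulated form of muscle and fat, was also clearly above background with 8.40, 8.42 and 8.98. Slc2a3 was weak (5.85 ± 0.18) and Slc2a2, the liver form, near background (5.15 ± 0.18). Glucose is phosphorylated by hexokinases, among which Hk1 gave 12.18, 12.31 and 11.93 and Hk2, Hk3 and Hkdc1 lay between 4.16 and 4.80. The dimmer of the 2 probe sets of Hk1 had a mean of 9.17. Both pyruvate kinase genes were clearly above background, the liver and red cell form Pklr with 8.84, 8.67 and 8.87 and Pkm with 7.48, 7.42 and 7.34.

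Other steps also rested on few genes. Pfkl (7.45 ± 0.22) was the phosphofructokinase clearly above background; Pfkm (7.27, 6.76 and 7.13) fell below the upper level on replicate 2, and Pfkp was weak (5.25 ± 0.14). Aldoa (8.80 ± 0.36), Pgk1 (9.81 ± 0.15) and Ldha (7.58 ± 0.34) were the aldolase, phosphoglycerate kinase and lactate dehydrogenase above both levels. Their relatives Pgk2 (3.31 ± 0.14), Ldhb (4.49 ± 0.18) and Ldhc (3.43 ± 0.08) were near background, and Aldoc was weak (5.59 ± 0.28). Of the enolases, Eno3 was weak (6.25 ± 0.08) and Eno2 near background (4.48 ± 0.09), with no value for Eno1, which has no probe set of its own. Bpgm, which makes the 2,3-bisphosphoglycerate that loosens the hold of hemoglobin on oxygen, gave 12.20, 12.33 and 12.62. Lactate carriers clearly above background were Slc16a1 (9.54 ± 0.29) and Slc16a3 (8.03 ± 0.49).

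For cytochrome oxidase, Cox4i1 (12.43 ± 0.18), Cox6a1 (12.89 ± 0.04), Cox7a2 (12.08 ± 0.08), Cox7a2l (10.45 ± 0.09) and Cox8a (11.23 ± 0.04) were clearly above background. The tissue-restricted forms Cox4i2 (5.21 ± 0.03), Cox6a2 (6.53 ± 0.24) and Cox7a1 (5.30 ± 0.10) were weak, and Cox8b and Cox8c near background. In subunit 6b both forms were clearly above background. Cox6b2, known as the testis form, gave 11.52, 11.30 and 11.71, beside Cox6b1 with 12.89, 12.92 and 12.92. Both are read on all 3 arrays far above the upper level, and whether the probe set of Cox6b2 also binds other transcripts was not tested.

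Carriers and regulators of mitochondria showed similar choices. Slc25a5 (10.98 ± 0.16) was the adenine nucleotide carrier above both levels, with Slc25a4, the muscle form, weak (5.95 ± 0.01) and Slc25a31 near background (3.28 ± 0.08). All 3 porins were clearly above background, Vdac3 at 10.63 ± 0.27, Vdac2 at 9.75 ± 0.23 and Vdac1 at 8.69 ± 0.15. The NAD-dependent isocitrate dehydrogenase genes Idh3g (11.46 ± 0.11) and Idh3b (9.45 ± 0.19) passed the upper level; Idh3a (6.08 ± 0.25) and Idh2 (6.73 ± 0.36) were weak and Idh1 (5.05 ± 0.24) near background. Pdk3 (8.65 ± 0.11) and Pdk1 (6.99 ± 0.19) were the pyruvate dehydrogenase kinases that passed. The PGC-1 coactivators of mitochondrial biogenesis were near background (Ppargc1a, 3.37 ± 0.03; Ppargc1b, 4.75 ± 0.11) or weak (Pprc1, 6.78 ± 0.36). The mitophagy receptor gene Bnip3l, which clears mitochondria from reticulocytes, gave 12.37, 12.76 and 12.61, and its relative Bnip3 gave 7.02, 8.01 and 7.08.

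Gata1 was the single GATA factor clearly above background, with Gata4 (6.25 ± 0.05) and Gata6 (5.27 ± 0.06) weak and Gata2, Gata3 and Gata5 near background. Its cofactor Zfpm1 gave 9.22, 8.83 and 9.11 and the relative Zfpm2 5.08 ± 0.18. The partners of GATA1 in its complex with TAL1 were clearly above background: Tal1 (8.86 ± 0.03), Lyl1 (8.95 ± 0.14), Lmo2 (10.90 ± 0.11) and Ldb1 (9.72 ± 0.36). Their relatives Tal2, Lmo1, Lmo3 and Ldb2 lay between 3.63 and 4.68, near background, and Lmo4 was weak (5.34 ± 0.26).

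Of 17 Kruppel-like factors 5 were clearly above background. Klf3, a repressor that acts beside KLF1, gave 9.99, 9.92 and 10.38, and Klf1 itself is given above. The others were Klf11 (7.93 ± 0.03), Klf16 (7.47 ± 0.08) and Klf6 (7.22 ± 0.10), 8 were weak and 4 near background. Klf14 (6.94, 6.77 and 6.59) and Klf5 (6.48 ± 0.10) were the highest of the weak ones, and Klf2, with a known part in embryonic red cells, was weak (5.89 ± 0.08).

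Other erythroid factors came from families with 1 or a few members in use. Nfe2, which acts at the globin locus with a small MAF protein, gave 11.89, 11.80 and 12.03, and of its relatives Nfe2l2 (8.68 ± 0.01), Nfe2l1 (8.43 ± 0.17) and the heme-regulated repressor gene Bach1 (8.21 ± 0.11) were clearly above background. The small MAF genes that passed were Mafg (8.97 ± 0.06) and Mafk (7.81 ± 0.21), with Maff near background (4.70 ± 0.08). Gfi1b gave 10.30, 9.95 and 10.22 while Gfi1 was weak (5.48 ± 0.05). For the repressors of embryonic globin genes, Bcl11a gave 8.29, 7.70 and 7.85 and Sox6 9.64, 9.67 and 9.71, with Bcl11b (6.00 ± 0.12) and Sox13 (6.30 ± 0.10) weak and Sox5 (4.09 ± 0.05) near background.

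Factors of proliferation divided by member. Mybl2, which serves the cell cycle, gave 8.93, 8.69 and 8.74, and Myb itself was weak with 5.15, 5.05 and 5.15, just over the lower level. All MYC factors were weak or near background: Myc at 6.15 ± 0.72, Mycl at 5.15 ± 0.09 and Mycn at 5.02 ± 0.07. The MAX-binding antagonists of MYC were clearly above background as Mxd1 (9.97 ± 0.17), Mxd3 (8.60 ± 0.14), Mxi1 (8.11 ± 0.04) and Mnt (7.30 ± 0.08), with Mxd4 and Mga weak. Foxo3, a factor of late maturation, gave 9.54, 9.51 and 9.65, and Foxo1, Foxo4 and Foxo6 were weak between 5.34 and 6.51.

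Among the CBFA2T corepressors Runx1t1 gave 8.90, 8.89 and 9.14, whereas Cbfa2t3 (6.45 ± 0.34), a known partner of the TAL1 complex, and Cbfa2t2 (5.43 ± 0.18) were weak. Runx1 gave 7.07, 6.56 and 6.80 and fell below the upper level on replicate 2. The Ikaros factors above both levels were Ikzf5 (9.14 ± 0.24) and Ikzf1 (8.49 ± 0.15). Of 4 ID proteins and 6 STAT factors measured, 0 were clearly above background; Stat5b gave 6.66, 6.22 and 6.42, Stat5a 5.62 ± 0.04 and Stat3 6.94 ± 0.06.

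The receptor for erythropoietin, the hormone that keeps these cells alive, was clearly above background (Epor: 9.18, 8.99 and 9.20). Its kinase gene Jak2 gave 9.24, 9.47 and 9.64, and Jak1 passed as well (9.53 ± 0.18), with Tyk2 near background (4.61 ± 0.07). The STAT5 genes downstream were weak, as given above. The target kinase gene Pim1 gave 8.94 ± 0.18, with Pim2 and Pim3 weak at 6.14 and 6.45. Of the SOCS inhibitors of this pathway Socs4 alone was clearly above background (7.93 ± 0.08), and the known STAT5 target Cish gave 7.06, 6.35 and 6.39. The insulin receptor gene Insr passed (8.87 ± 0.12), Igf1r was weak (6.12 ± 0.26), and Kit and Csf2rb were near background.

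Sensors of hormone, oxygen and heme completed the signalling set. The glucocorticoid receptor gene Nr3c1, which supports the expansion of progenitors, was weak (6.68 ± 0.14), and so were Thra (6.39 ± 0.21), Rara and Rarg. Of the HIF alpha genes, Hif1a (5.85 ± 0.10) and Hif3a (6.42 ± 0.30) were weak and Epas1 (4.93 ± 0.04) near background, and of the prolyl hydroxylases Egln1 (6.78 ± 0.15) and Egln2 (6.39 ± 0.17) were weak and Egln3 (3.93 ± 0.22) near background. The kinases of eIF2alpha differed sharply. Eif2ak1, the heme-regulated inhibitor that couples globin synthesis to heme, gave 11.79, 11.88 and 11.94, Eif2ak2 (6.66 ± 0.27) and Eif2ak3 (5.23 ± 0.11) were weak, and Eif2ak4 was near background (5.00 ± 0.18).

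Most cell cycle families had members clearly above background. Ccna2 gave 11.85, 11.99 and 11.92, Ccnb2 11.60, 11.72 and 11.63, and Cdk1 11.16, 11.32 and 11.38, all genes of late S phase and mitosis. Ccne2 (9.32 ± 0.21) and Ccne1 (9.26 ± 0.40) were clearly above background, and the germ line relatives Ccna1 (5.11 ± 0.06) and Ccnb3 (2.99 ± 0.09) were weak and near background. For entry into the cycle Ccnd3 gave 7.83, 7.45 and 7.66, with Ccnd2 (6.44 ± 0.12) and Ccnd1 (5.17 ± 0.17) weak. Cdk4 (8.38 ± 0.26) was clearly above background and Cdk6 near background (4.33 ± 0.09).

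The brakes of the cycle were measured beside its engines. The inhibitor gene Cdkn1b gave 10.77, 11.15 and 10.80, Cdkn2d 9.67, 9.68 and 10.25 and Cdkn2c 9.20 ± 0.11, while Cdkn2a, Cdkn2b and Cdkn1c were weak between 5.34 and 6.01. E2F factors clearly above background were E2f8 (10.62 ± 0.23), E2f4 (10.44 ± 0.09), E2f2 (10.12 ± 0.13), E2f7 (7.80 ± 0.13), E2f1 (7.24 ± 0.28) and E2f6 (7.03 ± 0.17), with E2f3 and E2f5 weak. Of the pocket proteins that bind them, Rb1 (10.31 ± 0.27) and Rbl1 (8.11 ± 0.19) passed and Rbl2 (6.26 ± 0.24) was weak. Nucleotide supply used Rrm2 (12.03 ± 0.19), Rrm1 (11.10 ± 0.05) and Tk1 (9.75 ± 0.16), the S phase forms, with Rrm2b weak (5.55 ± 0.11) and Tk2 near background (4.97 ± 0.20).

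Survival genes were selective. Bcl2l1, which encodes BCL-XL, gave 12.08, 12.02 and 12.30 and Mcl1 10.89, 10.97 and 10.99, whereas Bcl2 (4.47 ± 0.01), Bcl2l2 (4.42 ± 0.03) and Bcl2l10 (3.33 ± 0.12) were near background. Of 8 BH3-only genes, which trigger death, Hrk (7.34 ± 0.11) was clearly above background, 4 were weak and 3 near background. The effector gene Bak1 was weak (6.57 ± 0.35). Of the caspases with a value, Casp2 passed (7.51 ± 0.16).

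**Figure D4:**
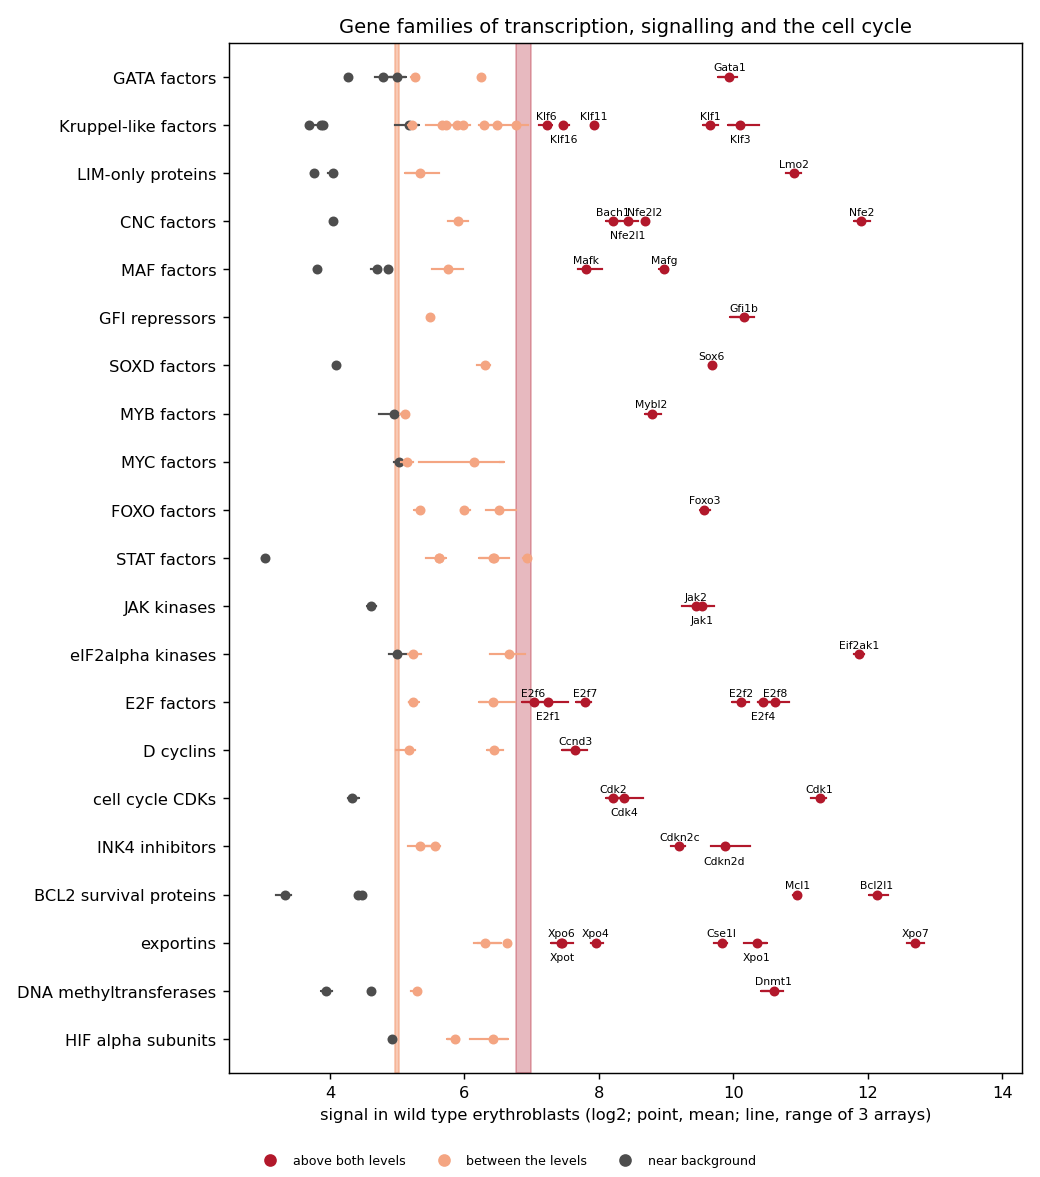
Log2 signal of family members of transcription, signalling and the cell cycle in wild type erythroblasts, 1 row per family, with the mean as a point and the range of the 3 arrays as a line. Single members lie right of the upper background level in rows such as the GATA factors and eIF2alpha kinases, and none do in the MYC, STAT and HIF rows.

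Antioxidant families had members at the top of the scale. Besides Gpx1, the glutathione peroxidase Gpx4, which repairs oxidised lipids, gave 12.52, 12.45 and 12.57. Gpx2 was weak (5.29 ± 0.25), and Gpx3, Gpx5, Gpx6, Gpx7 and Gpx8 lay between 3.58 and 4.85, near background. Of the peroxiredoxins, Prdx2, Prdx3 (10.86 ± 0.17), Prdx1 (8.79 ± 0.23) and Prdx4 (8.11 ± 0.15) were all clearly above background, as were catalase (Cat, 11.43 ± 0.17) and the mitochondrial dismutase gene Sod2 (8.21 ± 0.19). The secreted dismutase gene Sod3 was near background. Thioredoxin used Txn1 (12.67 ± 0.05) and Txn2 (9.55 ± 0.19) with the reductases Txnrd2 (10.01 ± 0.19) and Txnrd1 (7.78 ± 0.12), and glutaredoxins used Glrx5 (12.30, 12.33 and 12.66), which passes on iron-sulfur clusters, Glrx2 (10.06 ± 0.07) and Glrx3 (7.55 ± 0.16), with Glrx near background (5.02 ± 0.27).

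Xpo7 gave 12.59, 12.68 and 12.84; it is an exportin known for its part in nuclear condensation of erythroblasts. The general exportin genes Xpo1 (10.35 ± 0.17) and Cse1l (9.83 ± 0.11) and the exportin genes Xpo4, Xpot and Xpo6 (7.44 to 7.95) were clearly above background too, and Ranbp17 (6.30 ± 0.21), a close relative of Xpo7, and Xpo5 (6.64 on each array) were weak. Lmnb1 (10.14 ± 0.15) and Lmna (9.17 ± 0.24) were the lamins that passed. The maintenance DNA methyltransferase gene Dnmt1 gave 10.65, 10.41 and 10.74, with Dnmt3a weak (5.30 ± 0.08) and Dnmt3b and Dnmt3l near background.

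Histone genes of replicating cells were prominent. The linker histone genes H1f5 (12.50 ± 0.11), H1f2 (12.32 ± 0.06), H1f1 (11.46 ± 0.19) and H1f3 (8.26 ± 0.44) and the variants H2az1, H2ax (11.35 ± 0.11), H2aj (10.77 ± 0.04) and H2az2 (9.27 ± 0.18) were clearly above background, with Macroh2a1 weak (6.18 ± 0.48) and Macroh2a2 near background (3.46 ± 0.32). Of the deacetylases Hdac1 (10.30 ± 0.07) and Hdac2 (9.37 ± 0.11) passed, 7 were weak and 1 near background. Histone methyltransferases were above both levels as Ezh2 (10.38 ± 0.07), Ezh1 (8.54 ± 0.09), Kmt5a (9.48 ± 0.04), which marks histone H4, Kmt5c (8.13 ± 0.32) and Kmt5b (7.58 ± 0.13). The TET dioxygenases, which oxidise methylated DNA, were weak (Tet3, 5.70 ± 0.13) or near background (Tet1 and Tet2).

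Among the tubulins with a probe set of their own, Tuba4a gave 12.09, 11.96 and 12.30 and Tubb5 11.96, 11.89 and 12.18, with Tubb2a (10.84 ± 0.03) and Tuba1a (9.01 ± 0.04) also clearly above background. Tuba1b, Tuba1c and Tubb4b have only shared probe sets: the set shared by Tuba1c and Tuba1b had a mean of 12.65, those shared by Tuba1a, Tuba1b and Tuba1c means from 12.78 to 12.83, and those shared by Zfp646 and Tubb4b means of 11.84 and 12.42. Tubb1, the platelet form, was weak (6.37 ± 0.24), and the neuronal form Tubb3 near background (4.56 ± 0.36). The myosin genes Myh10 (7.55 ± 0.17) and Myh9 (7.53 ± 0.43), of cell division and enucleation, passed, and of the formins Diaph3 (9.37 ± 0.12) did, with Diaph1 weak (6.47 ± 0.07).

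In translation, the elongation factor gene Eef1a1 was clearly above background and Eef1a2 weak (5.66 ± 0.02). Among poly(A)-binding proteins Pabpc1 was clearly above background, and Pabpc2, Pabpc5 and Pabpc6 lay near background between 3.52 and 4.90. Pabpc4 has no probe set of its own, and those it shares with Gm12620 had means from 10.29 to 10.47. Rpl10 (12.50 ± 0.05) and Rpl7 (12.36 ± 0.08) were clearly above background, as were Rps27l (10.64 ± 0.12), Rpl7l1 (8.02 ± 0.10) and Rpl22 (7.30 ± 0.10), while the restricted paralogues Rpl3l, Rpl10l and Rpl39l were near background between 3.74 and 4.36. The ZFP36 factors, which speed the decay of messengers, were all weak, from 5.28 to 6.30.

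Among the processes as listed, protein turnover had the largest share of members clearly above background. Its conjugating enzymes and ligases were picked for red cell maturation, with 5 of 5 and 7 of 9 such members. Of all 35 conjugating enzyme genes by symbol, 20 were clearly above background (57.1%). The conjugating enzyme genes of the list, Ube2c (11.16 ± 0.02), Ube2l6 (10.99 ± 0.07), Ube2o (10.90 ± 0.20), Ube2h (10.78 ± 0.20) and Ube2r2 (9.56 ± 0.25), all passed. So did the ligase genes Trim10, Fbxo30 (11.82 ± 0.17), Marchf2 (10.99 ± 0.22), Rnf123 (10.51 ± 0.26), Fbxo7 (9.96 ± 0.11), Siah1a (9.63 ± 0.15) and Trim58 (7.89 ± 0.19), with Siah1b and Siah2 weak. Of the ATG8 proteins, which coat the autophagosome, Gabarap (11.91 ± 0.04), Map1lc3b (11.46 ± 0.23), Gabarapl2 (11.37 ± 0.21) and Gabarapl1 (8.52 ± 0.28) passed and Map1lc3a was weak (6.25 ± 0.17). The upstream kinase was Ulk1 (8.39 ± 0.22), with Ulk2 and Ulk3 near background, and the ATG4 proteases were Atg4a (10.41 ± 0.25), Atg4d (8.59 ± 0.37) and Atg4b (7.19 ± 0.07).

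Among chaperones, Hspa8, the constitutive HSP70, gave 11.72, 11.68 and 11.83 and the HSP90 gene Hsp90aa1 11.58, 11.74 and 11.60. The heat-inducible Hspa1a was weak, with 6.24, 6.15 and 5.38, and lowest on replicate 3. Hspa2 was weak (5.59 ± 0.15) and Hspa1l near background (4.77 ± 0.16). Neither arginase gene passed the lower level (Arg1, 4.62 ± 0.00; Arg2, 3.94 ± 0.08).

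Among adhesion genes, Itga4 gave 10.27, 10.40 and 10.59 and Itgb1 8.51, 8.65 and 8.71, which together form the receptor for VCAM1. Itga5 (4.08 ± 0.03) and Itga6 (4.36 ± 0.10) were near background, and of the other beta integrins Itgb3, Itgb4 and Itgb7 were weak and the remaining 4 near background. Cd47, the signal that protects red cells from being eaten, gave 12.10, 12.30 and 12.55, Icam4 11.59, 11.47 and 11.74 and Bsg 11.51, 11.29 and 11.49. Cd36 (8.38, 9.43 and 8.72) and Maea (7.46 ± 0.13) were clearly above background, Cd44 (5.40 ± 0.03) was weak and Emb (2.89 ± 0.08) near background. Complement is held off by Cd59a (10.02 ± 0.25), Cr1l (9.82 ± 0.17), Cd55 (7.66 ± 0.33) and Cd59b (7.65 ± 0.29), all clearly above background.

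Most of this pattern was shared by the other genotypes. Of the 9997 genes above the lower level in wild type, 9752 also exceeded it on all 3 Th3/+ arrays and 9707 on all 3 Th3/Th3 arrays, and of the 396 family members 390 and 387 did. Among family members, Cd36 exceeded the level on all 3 wild type arrays and on 0 Th3/Th3 arrays (4.17, 4.87 and 4.73). Epas1 did the reverse by a narrow margin, with a mean of 4.93 in wild type and 4.99 in Th3/Th3. The same 3 wild type arrays serve both comparisons below.

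In Th3/+ cells, with limma, 5 of 17742 probe sets passed an adjusted p of 0.05 (0.0282%), and 2 of 457 family members did, both higher. Hspa1a gave 8.95, 9.33 and 8.64 in Th3/+ cells, all above the 3 wild type values, a rise of 3.05 (SE 0.27, adjusted p = 0.00482). Hspa8 gave 12.43, 12.66 and 12.66, a rise of 0.83 (SE 0.08, adjusted p = 0.00482), again without overlap. Of the 100 genes highest in wild type, 0 passed in Th3/+ by limma, and 1 had an unadjusted p under 0.05. With limma on only the 6 arrays compared, 0 probe sets and 0 family members passed, Hspa1a and Hspa8 included, while 772 and 32 had an unadjusted p under 0.05. Without wild type replicate 1 the count of family members fell to 1, and without Th3/+ replicate 1 that of all probe sets rose to 12.

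In Th3/Th3 cells 2181 of 17742 probe sets passed (12.3%), 1297 higher and 884 lower, and 134 of 457 family members did, 37 higher and 97 lower. By class in wild type, 114 of the 237 family members clearly above background passed (48.1%), 23 higher and 91 lower, against 1109 of 4140 genes of that class (26.8%), 541 higher and 568 lower. Of the weak members 18 of 159 passed (11.3%), 12 higher and 6 lower, against 8.55% of all weak genes. Since these families were chosen with earlier results of the data known, the larger share is a description and not independent evidence. Of the 61 members near background 2 passed, both higher. Of the 100 genes highest in wild type, 30 passed, 11 higher and 19 lower. The classes and these 100 genes were set on the same wild type arrays that serve as the baseline here. Choosing genes for a high wild type value favours lower values in the other genotype, so the directions by class are a description only. The count of all probe sets was 1447 without wild type replicate 2. With quantile normalization of the 9 arrays it was 2282, 1174 higher and 1108 lower, so the excess of higher probe sets depends on the normalization. That of family members was then 136, 31 higher and 105 lower.

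**Figure D5:**
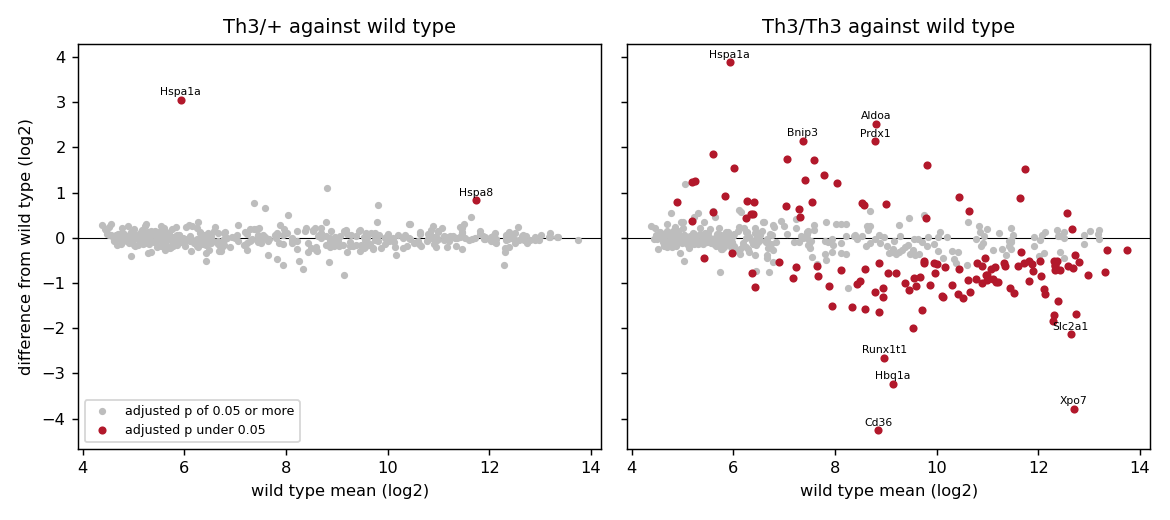
Difference of Th3/+ (left) and Th3/Th3 (right) from wild type in log2, against the wild type mean, for 457 family members tested; red points passed an adjusted p of 0.05 with limma. Names mark both passing members in the left panel and those with a difference over 2 in the right, where most red points lie below 0.

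Some members far above background in wild type were much lower in Th3/Th3 cells. Cd36, with the values given above, fell by 4.26 (SE 0.31, adjusted p = 8.72e-05, limma). Xpo7 gave 9.04, 8.77 and 8.95, a fall of 3.78 (SE 0.09, adjusted p = 1.25e-07, limma), and the glucose transporter gene Slc2a1 10.94, 10.05 and 10.54 (fell by 2.13, adjusted p = 0.000342, limma). Xpo7 and Slc2a1 remained far above the upper level. Hbq1a gave 5.97, 6.23 and 5.55 and Runx1t1 6.27, 6.49 and 6.19 (adjusted p = 0.000287 and 2.08e-05, limma), which are below the lowest upper level of the wild type arrays, 6.77. In the other direction Aldoa gave 11.44, 11.23 and 11.30 and rose by 2.53 (SE 0.22, adjusted p = 0.000218, limma). None of these members overlapped between the 2 genotypes; they were chosen for naming after their values were seen.

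The means of some marker lists differed with the genotype as well. The mean of the 10 erythroblast markers was 10.77, 10.52 and 10.63 in Th3/Th3 against 11.36, 11.39 and 11.49 in wild type. That of the 17 macrophage markers was 4.88, 4.93 and 4.80 against 5.38, 5.43 and 5.13, and that of the 8 megakaryocyte markers 6.35, 6.46 and 6.38 against 6.65, 6.60 and 6.85. The 3 embryonic globins had list means of 10.29, 10.86 and 10.60 against 11.09, 10.96 and 11.56. Within this list Hbb-bh1 had a mean of 12.30 in wild type, 11.71 in Th3/+ and 10.46 in Th3/Th3. The Th3 allele lacks the adult beta-globin genes, and whether their transcripts add to this signal was not tested. Hbb-y (12.03 in wild type and 11.98 in Th3/Th3) and Hba-x (9.28 and 9.31) hardly differed. The 8 early progenitor markers had list means of 4.51, 4.49 and 4.37 against 4.62, 4.63 and 4.56. All of these lie below the lower background level, which itself ranged from 4.87 to 5.05 over the 9 arrays. They therefore do not show a change in expression of these genes. The macrophage means in Th3/Th3 lie near that level too. In the means of these 5 lists every Th3/Th3 array lay below every wild type array. In those of the other 5, the hepatoblast list among them, the genotypes overlapped. The part of other cell types in the genotype differences was not tested.

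Families with several members were then compared within Th3/Th3 cells. Of 85 families with a member past the test, 54 had only lower ones, 20 only higher ones and 11 had members in both directions. These families hold 134 passing members, and a family with a single passing member cannot show both directions. The counts therefore do not measure how often relatives moved apart. Pklr fell by 1.19 (SE 0.16, adjusted p = 0.00167 by limma; 7.89, 7.33 and 7.59 in Th3/Th3) and Pkm rose by 1.28 (SE 0.14, adjusted p = 0.000721; 8.96, 8.49 and 8.64). In wild type every Pklr value lay above every Pkm value, and in Th3/Th3 every Pkm value lay above every Pklr value, although these are signals of different probe sets.

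Other pairs also had members that moved in opposite directions. Alas2 fell by 0.66 (SE 0.10, adjusted p = 0.00274) and Alas1 rose by 0.36 (SE 0.10, adjusted p = 0.0434), to a mean of 5.55 that was still weak. Bnip3l fell by 0.61 and Bnip3 rose by 2.14 (adjusted p = 0.0029 and 0.00212), Prdx2 fell by 0.27 and Prdx1 rose by 2.14 (adjusted p = 0.00741 and 8.72e-05), and Slc16a1 fell by 1.99 while Slc16a3 rose by 1.21 (adjusted p = 0.000978 and 0.0117). These adjusted p-values are from limma over all probe sets. Txnrd2 fell by 0.59 and Txnrd1 rose by 1.39, and Bpgm fell by 1.41 while its mutase relative Pgam1 rose by 0.63 (adjusted p = 0.0128, 0.0024, 8.28e-05 and 0.0382, limma). Among regulators, E2f2, E2f4, E2f8 and E2f1 fell and E2f6 rose, Klf3 and Klf13 fell and Klf7 rose from near background, Mxd1 fell and Mxd4 and Mga rose, and Mpp1 and Mpp2 fell and Mpp7 rose.

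By process, the membrane set had 20 lower and 2 higher of 59 tested, heme and iron 11 lower and 4 higher of 33, transcription 13 lower and 3 higher of 77, and the cell cycle and death set 13 lower and 3 higher of 49. Glycolysis had 5 lower and 7 higher of 24, and protein turnover 11 lower and 6 higher of 31. Mitochondrial families had 1 lower and 2 higher of 27 (11.1%), near the 12.3% of all probe sets. Among the genes of the membrane, Kel went from 11.96, 12.08 and 12.15 in wild type to 11.33, 11.04 and 11.28, and Sptb from 11.48, 11.32 and 11.74 to 10.39, 10.06 and 10.44, in each case without overlap (adjusted p = 0.000538 and 0.000945, limma). Both remained far above the upper level in Th3/Th3 cells.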

How the data were processed

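RNA of the sorted cells (35 ng per sample) was amplified, labelled with biotin and hybridised to 9 whole-transcript arrays, per the labels' protocols. The authors deposited 1 log2 value per probe set and array. The submitters' processing notes name MAS5. Its settings and role, the method that summarised probes into these log2 values and the genome build are not given in the labels or files used here. Log2 values were used as deposited. Precision is limited by the 3 arrays of each genotype. Of the probe sets, 6617 form the control block and were left out, 1621 have several gene symbols and 5529 none. No gene was named from these except where the text gives shared probe sets, for adult globins, tubulins and Pabpc4. A gene was read from its single-symbol probe set with the highest wild type mean, which mattered for 999 genes with more than 1. Promoters and microRNAs were matched by gene identifier.

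Genotypes were compared with limma 3.58.1 in R 4.3.3 (lmFit, eBayes with trend) on all 9 arrays, for probe sets that exceeded the 40th percentile of all probe sets on 3 or more of the 9 arrays, two-sided, with Benjamini-Hochberg adjustment over the 17742 probe sets kept. The procedure was tested on simulated data. The replicate numbers were not used to pair the samples in this fit, and whether samples of the same number belong together is not known. The p-values reflect only how these samples vary, which may be technical.

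The families, markers and other lists were chosen with earlier results of these data known, and the upper background level was added as a class after the values were seen. The rule for named genes takes the 40 highest genes, family members above background, near-background members of families of up to 8, markers above background, the 20 most variable named genes, the 5 highest of each symbol group described, and up to 4 passing members per process. The text leaves out some weak members that the rule would name. Other genes are said to be chosen after their values were seen.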

Additional observations from a re-analysis of the deposited data

How the results depend on the processing

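The count of genes above the lower level was 6301 with the 99th percentile of sensory receptors and 4140 with the keratin-associated level alone, which also left 237 family members. Families with a single member above background numbered 35 and 47 under these levels and 9 with the 40th percentile of each array. Requiring 2 of 3 arrays, taking the median of a gene's probe sets, or quantile normalization kept the counts of genes, family members and such families within 1.5 times. Without 1 wild type replicate in turn, genes above the lower level ranged from 10092 to 10229 and 96 to 99 of the 100 highest genes were kept; with the median of probe sets 89 were. The Th3/+ comparison passed 10 probe sets with the 60th percentile as filter, and 0 probe sets and 0 family members with limma on only the 6 arrays compared, where 772 probe sets and 32 family members had an unadjusted p under 0.05. Leaving out 1 array at a time, it passed 3 to 12 probe sets and 1 to 3 family members, and the Th3/Th3 comparison 1447 to 2301 probe sets. With the replicate number as a block, the counts were 2470 probe sets and 137 family members for Th3/Th3 and 6 and 2 for Th3/+. Of 9 same-numbered pairs of arrays 6 had a correlation of deviations over 0.1, from -0.13 to 0.36 in all. Pairs with different numbers ranged from -0.35 to 0.25. Whether samples of the same number share a batch or litter was not tested, and the main fit did not pair them. Arrays have no read depth, and genes near background have only a bound.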
